A study of Homo sapiens with 9 samples.

Results

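The genes described here are 32 genes of cholesterol and fatty acid synthesis, followed in Huh7 cells in which KDM4C was silenced by either of a pair of siRNAs. They comprise pathway enzymes, the SREBP regulators of these enzymes and a sterol carrier, and were taken by symbol, with no measured value in the rule. All 32 were found among the 32906 genes listed in each library. Huh7 is an established cell line from a human hepatocellular carcinoma. The cells received Scramble, a control siRNA, or Si-KDM4C#1 or Si-KDM4C#2, both directed at the mRNA of KDM4C, a histone lysine demethylase, and were collected after 48 hours, so every library, controls included, comes from transfected cells. Each group has 3 libraries of total RNA, 9 in all. The labels do not say whether these came from separate cultures, so p-values measure only the spread between these libraries. Levels are FPKM (fragments per kilobase of exon, scaled to the mapped fragments of the library), a unit per length, so that genes can be compared with each other. In bulk RNA, fewer cells expressing a gene and less RNA per cell cannot be told apart.

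Cholesterol is built from acetyl-CoA through mevalonate, farnesyl pyrophosphate, squalene and lanosterol, and fatty acids are built from the same acetyl-CoA through malonyl-CoA. The genes of both routes are classical targets of the SREBP transcription factors, which are held in the endoplasmic reticulum by SCAP and INSIG proteins while sterols are plentiful. When sterols fall, SCAP carries SREBP to the Golgi, where proteases release the active factor. SREBP binds sterol regulatory elements, usually together with the factors that bind CCAAT and GC boxes. The liver is a main site of both routes.

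KDM4C itself, the target of both siRNAs, was at 4.88, 4.63 and 4.57 FPKM in the Scramble libraries, at 1.18, 1.10 and 1.13 under Si-KDM4C#1 and at 0.256, 0.349 and 0.256 under Si-KDM4C#2. No groups overlapped, and KDM4C was lower with Si-KDM4C#2 than with Si-KDM4C#1 (log2 difference -0.73, limma adjusted p = 2.4e-05). Log2 values here are of FPKM + 1, which understates changes at such low levels. As a ratio of mean FPKM, KDM4C with Si-KDM4C#1 was 3.97-fold its level with Si-KDM4C#2. Its paralog KDM4B fell with Si-KDM4C#2, from 6.67, 6.06 and 6.10 FPKM in Scramble to 1.10, 1.17 and 1.26 FPKM (log2 fold change -1.74, limma adjusted p = 1.43e-07). With Si-KDM4C#1, KDM4B was at 6.42, 5.73 and 5.16 FPKM (log2 fold change -0.11, limma adjusted p = 0.24). KDM4A did not pass the test against Scramble with either siRNA, with log2 fold changes of 0.10 and -0.13. Set directly against Si-KDM4C#1, KDM4A was lower with Si-KDM4C#2 (log2 difference -0.23, limma adjusted p = 0.013). KDM4D stayed under 1 FPKM in every library. The values of KDM4C and KDM4B moved with every difference between the siRNAs given here, and their part in it was not tested. Depth was 14597502 to 18058555 fragments per library, and its ranges in the groups overlapped. The 3 libraries of a group together held at least 187 fragments of each of the 32 genes. All 11 listed genes of a hepatocyte marker list were under 1 FPKM in every library, APOA2 being highest at 0.248 FPKM, so the liver origin of the line is given as labelled. The 4 listed leukocyte markers were also under 1 FPKM throughout. Markers of epithelial cells summed to 331 to 354 FPKM in Scramble, 290.0 to 309 under Si-KDM4C#1 and 241 to 255 under Si-KDM4C#2, KRT8 being highest and 2 of the 5 being under 1 FPKM throughout. Fibroblast and mesenchymal markers, led by VIM, summed to 99.0 to 109, 107 to 110 and 146 to 147 FPKM in the same order, with 3 of the 8 under 1 FPKM in every library. Some markers went against these sums. KRT18 rose with Si-KDM4C#1, from a mean of 141 FPKM in Scramble to 162 FPKM. LUM fell with Si-KDM4C#1, from 6.97 to 3.58 FPKM. PDGFRB fell with both siRNAs, from 1.95 FPKM to 0.308 and 1.03 FPKM. No listed marker was at 0 in every library. The part of these shifts in the results was not tested.

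Most of the lipid synthesis genes rose under Si-KDM4C#1, whereas under Si-KDM4C#2 more of them fell than rose. With Si-KDM4C#1, 23 of the 32 rose, 7 fell and 2 did not pass the test (limma-trend on log2(FPKM + 1), Benjamini-Hochberg adjusted p under 0.05 over the 14363 genes whose mean reached 1 FPKM in any of the groups). Among all genes tested, 31.7% rose and 33.9% fell, against 71.9% and 21.9% of the 32, so the share that rose was above the background and the share that fell below it. The median log2 fold change was 0.33 for the 32 and -0.032 for all genes tested. All 32 passed this filter on low values in Scramble as well as in the knockdown groups. A stricter filter, at least 1 FPKM in every library, kept 11171 genes, of which 4254 rose and 3908 fell with Si-KDM4C#1. It kept 31 of the 32, whose median log2 fold change was 0.31, beside 0.021 for all genes kept. Groups without overlap were common. With Si-KDM4C#1, all libraries were above Scramble for 4805 of the 14363 genes and below for 5166 (22 and 7 of the 32). With Si-KDM4C#2 it was 5360 and 4014 (8 and 14), and between the siRNAs 5743 and 4209 (4 and 23). A lack of overlap, given below gene by gene, is thus a description.

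With Si-KDM4C#2, 8 of the 32 rose, 14 fell and 10 did not pass. Of all genes tested 34.4% rose and 25% fell, against 25.0% and 43.8% of the 32. The share that fell was thus above the background. The share that rose was under it, but 8 to 10 of the 32 rose when 1 library was left out. The top of that range is near the background, so the lower share is not read as a result about these genes. The median log2 fold change was -0.071 for the 32, with 0.057 for all genes tested. The median of the 32 moved to -0.014 without Scramble replicate 1, to -0.036 without Si-KDM4C#2 replicate 2, to -0.16 after quantile normalization and to -0.18 after the GC adjustment, below 0 each time. Both comparisons share the Scramble libraries, so the siRNAs were also compared directly. There, 22 of the 32 were lower with Si-KDM4C#2 than with Si-KDM4C#1, 3 were higher and 7 did not pass. The background was 26.5% lower and 35.9% higher, against 68.8% and 9.38% of the 32, and the median log2 difference was -0.56 for the 32 and 0.082 for all genes tested. This background depended on scaling. After the GC adjustment, 4662 of 14343 genes were lower and 4398 higher. The medians were then -0.62 for the 32 and -0.0023 for all genes.

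**Figure D1:**
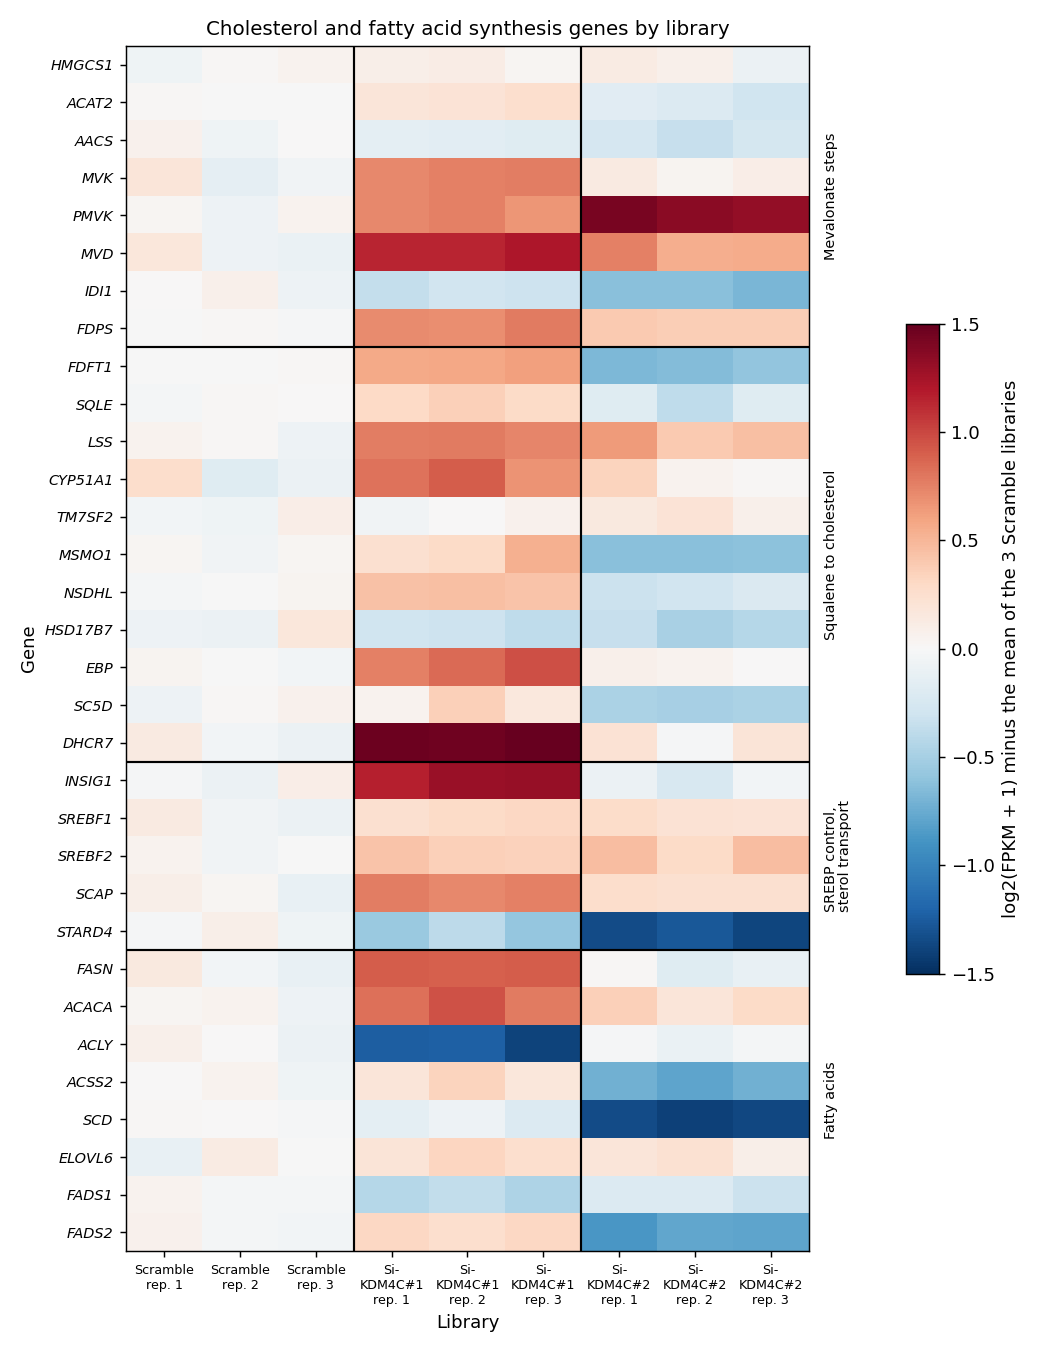
Level of each of the 32 genes (rows, by role) in each of the 9 libraries (columns), as log2(FPKM + 1) minus the mean of the 3 Scramble libraries, red above and blue below. Red prevails in the Si-KDM4C#1 columns, where 23 genes rose, while the Si-KDM4C#2 columns are mixed, with 8 risen and 14 fallen.

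Few of the 32 changed by more than 2-fold on the log2(FPKM + 1) scale, whose pseudocount of 1 understates the change of low genes. With Si-KDM4C#1 these were MVD, DHCR7 and INSIG1, which rose, and ACLY, which fell. Of all genes tested, 4.04% rose and 4.83% fell that far, and counts of 3 and 1 among 32 are too small to be read against those shares. With Si-KDM4C#2, PMVK rose and STARD4 and SCD fell by more than 2-fold, where the background was 2.6% and 2.3%. Those counts of 1 and 2 are likewise too small to be read. Between the siRNAs, 6 genes were lower by more than 2-fold with Si-KDM4C#2 (FDFT1, DHCR7, INSIG1, FASN, SCD and FADS2), a share above the background of 2.49%. ACLY alone was higher by more than 2-fold there, against 4.41%. As ratios of mean FPKM, without the pseudocount, further genes passed 2-fold. With Si-KDM4C#1 this was CYP51A1, and with Si-KDM4C#2 it was FADS2 (means of 4.21 FPKM in Scramble and 1.96 FPKM). Between the siRNAs these were ACSS2, MSMO1 and CYP51A1. The background split between higher and lower depended on scaling. Past 2-fold with Si-KDM4C#2 against Scramble, 373 genes were higher and 330 lower, but 238 and 376 after an adjustment for GC content. Between the siRNAs it was 634 higher and 358 lower, 458 and 406 after quantile normalization, and 490 and 456 after the GC adjustment.

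The promoters of 7 genes are shown, because the largest changes below are theirs (INSIG1, DHCR7, ACLY, SCD, STARD4 and PMVK) or because theirs held the sterol element searched for (SREBF2). Each is the 250 bases before the gene's start, 5′ to 3′ on the gene's strand, from RefSeq on GRCh38.p14, whose start can differ from that of other annotations. Capitals mark the GC box GGGCGG, the CCAAT box and the sterol regulatory element TCACNCCAC, each on either strand. INSIG1 is read from chr7:155297628-155297877 on the plus strand and DHCR7 from chr11:71448394-71448643 on the minus strand. ACLY is read from chr17:41919023-41919272, STARD4 from chr5:111512536-111512785 and PMVK from chr1:154936720-154936969, all on the minus strand. SCD is read from chr10:100346983-100347232 and SREBF2 from chr22:41832855-41833104, both on the plus strand.
INSIG1: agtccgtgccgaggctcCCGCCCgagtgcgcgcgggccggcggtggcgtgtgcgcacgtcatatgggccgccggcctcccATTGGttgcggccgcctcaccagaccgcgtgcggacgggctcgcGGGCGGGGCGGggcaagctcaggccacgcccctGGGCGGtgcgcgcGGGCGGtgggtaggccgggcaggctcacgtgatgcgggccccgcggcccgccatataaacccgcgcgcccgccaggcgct
DHCR7: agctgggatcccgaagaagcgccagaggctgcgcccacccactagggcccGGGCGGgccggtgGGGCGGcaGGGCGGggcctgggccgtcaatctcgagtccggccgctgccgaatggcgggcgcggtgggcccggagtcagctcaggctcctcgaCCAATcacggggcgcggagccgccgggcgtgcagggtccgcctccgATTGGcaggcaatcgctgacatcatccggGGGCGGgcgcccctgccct
ACLY: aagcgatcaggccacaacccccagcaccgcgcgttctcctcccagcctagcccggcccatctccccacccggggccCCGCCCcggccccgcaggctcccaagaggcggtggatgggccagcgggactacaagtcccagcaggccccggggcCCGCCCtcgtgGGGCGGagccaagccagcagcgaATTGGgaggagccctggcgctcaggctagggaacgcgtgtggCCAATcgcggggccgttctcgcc
SCD: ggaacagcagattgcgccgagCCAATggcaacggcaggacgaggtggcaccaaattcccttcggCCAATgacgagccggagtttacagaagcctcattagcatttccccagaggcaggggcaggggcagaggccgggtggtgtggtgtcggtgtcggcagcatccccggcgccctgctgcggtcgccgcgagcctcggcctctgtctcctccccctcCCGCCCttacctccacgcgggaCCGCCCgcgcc
STARD4: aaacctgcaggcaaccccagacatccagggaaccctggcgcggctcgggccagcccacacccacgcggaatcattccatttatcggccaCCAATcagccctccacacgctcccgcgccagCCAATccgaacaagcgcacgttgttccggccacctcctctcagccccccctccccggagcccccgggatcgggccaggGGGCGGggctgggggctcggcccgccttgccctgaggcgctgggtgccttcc
PMVK: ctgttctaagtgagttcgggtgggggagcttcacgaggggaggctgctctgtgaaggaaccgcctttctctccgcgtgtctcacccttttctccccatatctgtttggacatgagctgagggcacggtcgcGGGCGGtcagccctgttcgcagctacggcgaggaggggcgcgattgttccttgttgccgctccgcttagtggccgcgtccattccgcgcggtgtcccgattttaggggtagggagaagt
SREBF2: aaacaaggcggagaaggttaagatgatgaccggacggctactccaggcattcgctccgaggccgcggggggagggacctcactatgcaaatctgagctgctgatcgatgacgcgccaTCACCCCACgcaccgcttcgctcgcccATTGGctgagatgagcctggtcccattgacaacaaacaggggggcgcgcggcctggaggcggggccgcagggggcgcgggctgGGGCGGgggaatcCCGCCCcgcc
In a window running on to 50 bases past the start, 28 of the 32 genes matched the RefSeq table by symbol. CCAAT was present on either strand in 18 of them (64.3%), against 35.7% of 27305 promoters of the same length and 37.0% of the 9172 of genes tested here. GGGCGG was present in 26 (92.9%), against 44.6% of all promoters and 71.8% of those of tested genes. The sterol element as spelled was found in SREBF2 only, against 1.15% of all promoters. Matches that overlap each other were all kept, and a match of these letters is a description of the sequence and not a binding site.

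Among the regulators, INSIG1, whose protein retains SCAP and SREBP in the endoplasmic reticulum and which is itself a sensitive SREBP target, rose with Si-KDM4C#1 and did not pass the test with Si-KDM4C#2. It was at 28.6, 27.1 and 31.0 FPKM in Scramble, 66.3, 72.4 and 72.7 under Si-KDM4C#1 and 27.2, 24.3 and 28.0 under Si-KDM4C#2. The Si-KDM4C#1 libraries stood clear of all others, while the other groups overlapped. The mean was 2.44-fold that of Scramble with Si-KDM4C#1 (log2 fold change 1.26, SE 0.0661, limma adjusted p = 2.2e-07). The log2 fold change with Si-KDM4C#2 was -0.12 (95% interval -0.27 to 0.027, limma adjusted p = 0.14). This last value passed the test, as a decrease, after quantile normalization (-0.26) and in limma voom on recovered fragments (-0.18). The promoter of INSIG1 shown above holds 1 CCAAT box and a run of GC boxes.

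SREBF2, which encodes the SREBP with the stronger action on cholesterol genes, rose with both siRNAs. Its levels were 36.2, 33.6 and 34.8 FPKM in Scramble, 47.4, 45.0 and 44.5 under Si-KDM4C#1 and 48.5, 42.7 and 48.2 under Si-KDM4C#2. Every knockdown library was above every Scramble library, and the siRNA groups overlapped. The log2 fold changes were 0.38 and 0.40 (SE 0.0541, limma adjusted p = 0.000171 and 0.000154), and the direct difference was 0.024 with a 95% interval of -0.098 to 0.15. SREBF1, the SREBP with the stronger action on fatty acid genes, was at 51.6, 45.3 and 44.2 FPKM in Scramble, 55.9, 57.4 and 58.6 under Si-KDM4C#1 and 57.1, 54.5 and 54.1 under Si-KDM4C#2. Knockdown libraries were all above Scramble ones and the siRNA groups overlapped. SREBF1 rose by 0.28 and 0.23 on the log2 scale (limma adjusted p = 0.00148 and 0.00576), but after an adjustment for the GC content of exons these became 0.022 and -0.089 and no longer passed. Both were also lost after quantile normalization (0.11 and 0.13, limma adjusted p = 0.108 and 0.0668). SCAP, the escort of SREBP, was at 17.0, 16.3 and 14.7 FPKM in Scramble, 28.0, 27.1 and 27.8 under Si-KDM4C#1 and 19.4, 19.0 and 19.1 under Si-KDM4C#2. No groups overlapped. SCAP rose with Si-KDM4C#1 by 0.75 on the log2 scale (limma adjusted p = 9.45e-07). With Si-KDM4C#2 it rose by 0.25 (limma adjusted p = 0.00202), a value that turned to -0.056 after the GC adjustment.

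STARD4, a cytosolic carrier that moves sterol between membranes, fell with both siRNAs and further with Si-KDM4C#2. It was at 12.6, 13.6 and 12.1 FPKM in Scramble, 8.33, 9.45 and 8.17 under Si-KDM4C#1 and 4.40, 4.69 and 4.31 under Si-KDM4C#2. The groups did not overlap. Its log2 fold changes were -0.51 and -1.33 (SE 0.0639, limma adjusted p = 6.8e-05 and 2.35e-07), and the mean in Scramble was 2.86-fold that with Si-KDM4C#2. Between the siRNAs it differed by -0.82 (limma adjusted p = 3.46e-06). Of the 5 regulator and carrier genes, 4 rose and 1 fell with Si-KDM4C#1, and 3 rose and 1 fell with Si-KDM4C#2. Their summed level was 136 to 146 FPKM in Scramble, 206 to 212 under Si-KDM4C#1 and 145 to 157 under Si-KDM4C#2. Counts among 5 genes are too small to be read against the shares of all genes tested.

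**Figure D2:**
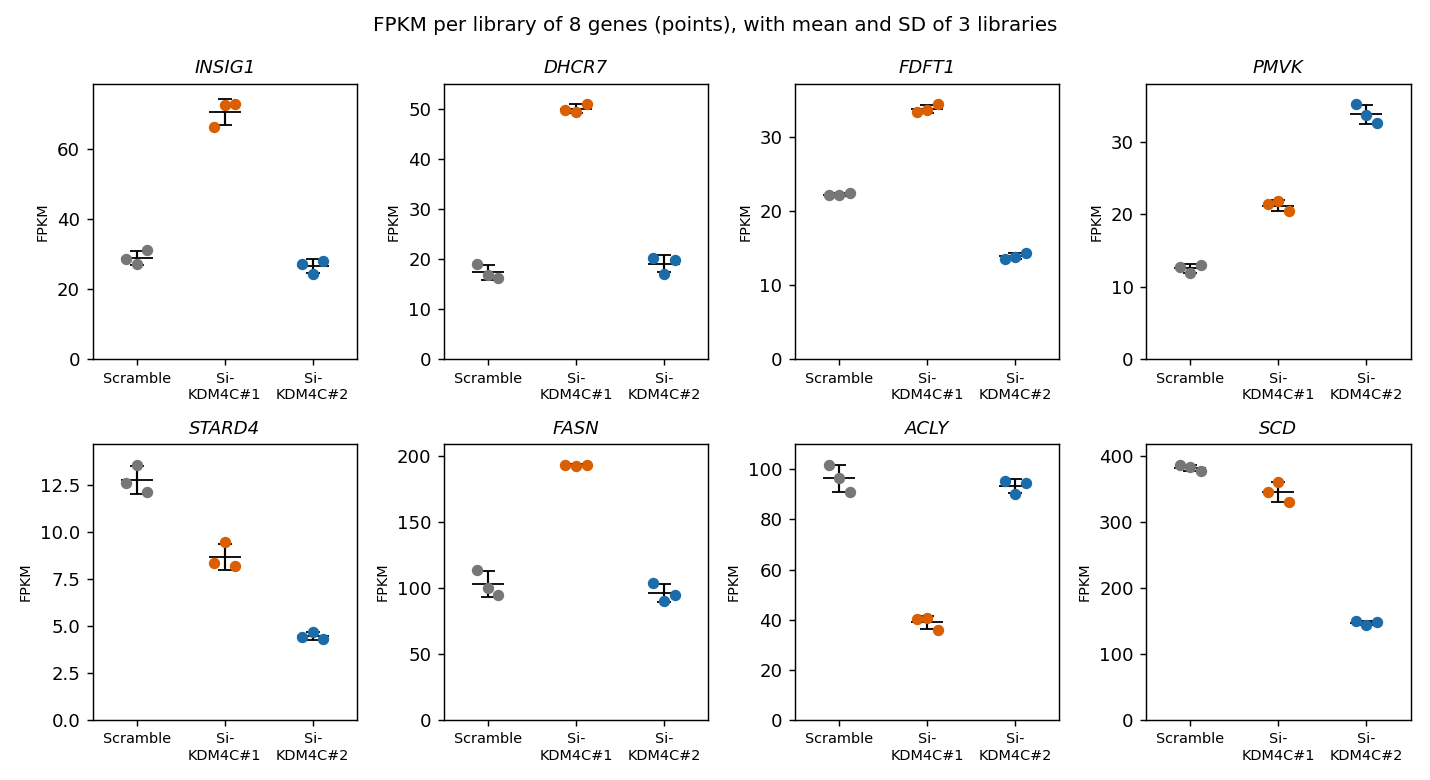
FPKM of 8 of the genes in each library (points), with the mean and SD of the 3 libraries of Scramble, Si-KDM4C#1 and Si-KDM4C#2, on axes from 0. INSIG1, DHCR7, FDFT1 and FASN are highest with Si-KDM4C#1, PMVK and STARD4 step in order across the groups, ACLY is lowest with Si-KDM4C#1 and SCD with Si-KDM4C#2.

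In the mevalonate steps, from acetyl-CoA to farnesyl pyrophosphate, the enzymes that turn mevalonate into isopentenyl pyrophosphate and FDPS rose with Si-KDM4C#1, while IDI1, which acts between them, fell. Of the 8 genes, 5 rose and 2 fell with Si-KDM4C#1, and 3 rose and 3 fell with Si-KDM4C#2. Their sum was 85.7 to 87.5 FPKM in Scramble, 114 to 116 under Si-KDM4C#1 and 104 to 111 under Si-KDM4C#2. The shares that rose and fell were 62.5% and 25.0% with Si-KDM4C#1, against 31.7% and 33.9% of all genes tested. With Si-KDM4C#2 both were 37.5%, against 34.4% and 25%, the first near the background. PMVK, which phosphorylates mevalonate phosphate, was at 12.8, 11.8 and 13.0 FPKM in Scramble, 21.4, 21.8 and 20.4 under Si-KDM4C#1 and 35.2, 33.7 and 32.6 under Si-KDM4C#2. The groups did not overlap, and PMVK was higher still with Si-KDM4C#2, under which 22 of the 32 genes were lower than with Si-KDM4C#1. Its mean rose 1.69-fold with Si-KDM4C#1 (log2 fold change 0.71, limma adjusted p = 9.72e-07) and 2.70-fold with Si-KDM4C#2 (1.36, limma adjusted p = 5.24e-08). Its promoter shown above holds a single GC box and no CCAAT. MVD, the decarboxylase that makes isopentenyl pyrophosphate, was at 3.89, 3.12 and 3.06 FPKM in Scramble, 8.58, 8.60 and 9.02 under Si-KDM4C#1 and 6.32, 5.31 and 5.37 under Si-KDM4C#2. Again no groups overlapped, and MVD rose with both, by 1.17 and 0.62 on the log2 scale (limma adjusted p = 1.63e-06 and 0.000175). FDPS, which makes farnesyl pyrophosphate, was at 20.7, 21.1 and 20.6 FPKM in Scramble, 34.7, 34.3 and 36.3 under Si-KDM4C#1 and 27.6, 27.2 and 27.1 under Si-KDM4C#2. FDPS rose with both (log2 fold changes 0.73 and 0.38, SE 0.0341) and the groups did not overlap.

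MVK, the kinase that acts before PMVK, was at 3.13, 2.32 and 2.51 FPKM in Scramble, 5.02, 5.13 and 5.21 under Si-KDM4C#1 and 2.99, 2.75 and 2.91 under Si-KDM4C#2. The Si-KDM4C#1 libraries lay above the others, which overlapped. MVK rose 1.93-fold with Si-KDM4C#1 (limma adjusted p = 2.46e-05), while with Si-KDM4C#2 its log2 fold change was 0.093 (limma adjusted p = 0.343, and 0.0322 without Scramble replicate 1). Its antisense neighbour MMAB, which shares 306 exon bases with it, had means of 2.70, 5.08 and 2.70 FPKM in the same order, and without stated strand reads of the shared bases cannot be told apart. IDI1, which isomerises isopentenyl pyrophosphate, went the other way, at 20.4, 21.6 and 19.3 FPKM in Scramble, 15.7, 16.6 and 16.2 under Si-KDM4C#1 and 12.8, 12.9 and 12.3 under Si-KDM4C#2. No library of a group reached another group's range, and IDI1 fell with both siRNAs (log2 fold changes -0.32 and -0.65, limma adjusted p = 0.000238 and 3.04e-06). With Si-KDM4C#1 the fall shrank to -0.11 after the GC adjustment (limma adjusted p = 0.0496) and was lost when the replicate block was added to it (0.0592). HMGCS1, the synthase that makes HMG-CoA, was between 12.3 and 14.4 FPKM in the 9 libraries, and its groups overlapped. Its log2 fold changes of 0.076 and 0.040 did not pass (limma adjusted p = 0.289 and 0.585), but the first became 0.30 after the GC adjustment (limma adjusted p = 0.00135) and 0.16 in limma voom on recovered fragments (0.0367).

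ACAT2, the thiolase that joins acetyl-CoA units, rose from 10.5 ± 0.0819 FPKM (SD, n = 3) in Scramble to 12.3 ± 0.310 FPKM with Si-KDM4C#1 and fell to 8.81 ± 0.424 FPKM with Si-KDM4C#2. The groups did not overlap (log2 fold changes 0.21 and -0.23, limma adjusted p = 0.00195 and 0.00158). ACAT2 shares 397 exon bases with TCP1 on the other strand, which had means of 49.2, 56.4 and 44.1 FPKM in the same order, so its values are uncertain. AACS, which activates acetoacetate for lipid synthesis, was at 3.24 ± 0.198 FPKM in Scramble, 2.78 ± 0.0482 under Si-KDM4C#1 and 2.47 ± 0.125 under Si-KDM4C#2. It fell with Si-KDM4C#2 (log2 fold change -0.29, limma adjusted p = 0.00277). Its fall with Si-KDM4C#1 passed narrowly (log2 fold change -0.17, limma adjusted p = 0.0378). It was lost in 6 of the 9 fits that left out a library, those without Scramble replicate 1 or 3, any Si-KDM4C#1 replicate or Si-KDM4C#2 replicate 3 (limma adjusted p up to 0.117). It was also lost after quantile normalization (0.436), without the filter on low genes (0.0701), with Scramble and Si-KDM4C#1 libraries alone (0.0602) and in voom (0.0679).

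In the steps from squalene to cholesterol, 9 of the 11 genes rose with Si-KDM4C#1 and 1 fell, while with Si-KDM4C#2 1 rose and 6 fell. Their sum was 147 to 151 FPKM in Scramble, 241 to 257 under Si-KDM4C#1 and 132 to 141 under Si-KDM4C#2. The shares that rose and fell were 81.8% and 9.09% with Si-KDM4C#1, against 31.7% and 33.9% of all genes tested. With Si-KDM4C#2 they were 9.09% and 54.5%, against 34.4% and 25%. DHCR7, the reductase of the last step, had the largest rise of the 32. It was at 19.1, 16.8 and 16.2 FPKM in Scramble, 49.9, 49.4 and 51.0 under Si-KDM4C#1 and 20.2, 17.1 and 19.9 under Si-KDM4C#2. The Si-KDM4C#1 libraries lay far above the rest, and the other groups overlapped. The mean rose 2.89-fold with Si-KDM4C#1 (log2 fold change 1.48, SE 0.0729, limma adjusted p = 1.52e-07). With Si-KDM4C#2 the log2 fold change was 0.13 (limma adjusted p = 0.158). It passed without Scramble replicate 1 (0.20, adjusted p = 0.037 in limma) and without Si-KDM4C#2 replicate 2 (0.20, adjusted p = 0.027 in limma). Its promoter above carries both CCAAT and GC boxes.

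FDFT1, the squalene synthase that commits farnesyl pyrophosphate to sterols, rose with Si-KDM4C#1 and fell with Si-KDM4C#2. It was at 22.2, 22.1 and 22.5 FPKM in Scramble, 33.4, 33.7 and 34.5 under Si-KDM4C#1 and 13.5, 13.8 and 14.4 under Si-KDM4C#2. No groups overlapped. The log2 fold changes were 0.58 and -0.64 (SE 0.0352, limma adjusted p = 4.9e-07 and 5.16e-07). MSMO1, the sterol methyl oxidase, was at 13.5, 12.6 and 13.5 FPKM in Scramble, 15.7, 16.3 and 19.6 under Si-KDM4C#1 and 8.17, 8.18 and 8.23 under Si-KDM4C#2. It rose by 0.35 and fell by 0.63 on the log2 scale with the siRNAs in that order, again with no overlap. NSDHL, the sterol dehydrogenase that acts next, was at 14.8, 15.0 and 15.5 FPKM in Scramble, 20.9, 21.0 and 20.7 under Si-KDM4C#1 and 11.8, 12.2 and 12.9 under Si-KDM4C#2. Its groups did not overlap. NSDHL rose with Si-KDM4C#1 (log2 fold change 0.44, limma adjusted p = 8.03e-06) and fell with Si-KDM4C#2 (-0.28, limma adjusted p = 0.000275).

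SQLE, the squalene epoxidase and a rate-limiting enzyme of the route, had the same order of groups, again without overlap. It was at 13.2, 13.8 and 13.6 FPKM in Scramble, 16.9, 17.6 and 16.8 under Si-KDM4C#1 and 11.9, 10.2 and 11.8 under Si-KDM4C#2 (log2 fold changes 0.31 and -0.25, limma adjusted p = 0.000769 and 0.00399). SC5D, the desaturase that makes the substrate of DHCR7, fell with Si-KDM4C#2 from 5.85 ± 0.336 FPKM to 3.90 ± 0.0553 FPKM (log2 fold change -0.48, limma adjusted p = 0.000447). With Si-KDM4C#1 it was at 6.13, 7.80 and 6.66 FPKM and its range overlapped that of Scramble. That rise (log2 fold change 0.19, limma adjusted p = 0.0477) was lost in 8 of the 9 fits that left out a library, the exception being the fit without Si-KDM4C#1 replicate 1, with adjusted p up to 0.165 in limma.

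EBP, the sterol isomerase, was at 39.2, 38.0 and 37.1 FPKM in Scramble, 64.9, 69.2 and 75.2 under Si-KDM4C#1 and 40.2, 39.6 and 38.3 under Si-KDM4C#2. It rose 1.83-fold with Si-KDM4C#1 (limma adjusted p = 5.32e-07), while the Si-KDM4C#2 and Scramble libraries overlapped (log2 fold change 0.046, limma adjusted p = 0.472). LSS, which closes squalene epoxide to lanosterol, rose with both, from 13.6, 13.2 and 12.3 FPKM to 23.0, 23.1 and 22.2 under Si-KDM4C#1 and 20.8, 17.3 and 18.2 under Si-KDM4C#2. Its groups did not overlap and its log2 fold changes were 0.76 and 0.49 (limma adjusted p = 4.77e-06 and 0.00013). CYP51A1, the lanosterol demethylase, was the lowest of the 32 in Scramble, at 1.50, 0.834 and 0.945 FPKM, beside 2.65, 2.88 and 2.31 under Si-KDM4C#1 and 1.62, 1.15 and 1.09 under Si-KDM4C#2. The Si-KDM4C#1 libraries lay above the others, which overlapped. It rose with Si-KDM4C#1 (log2 fold change 0.80, SE 0.138, limma adjusted p = 0.000632). Of its exon bases 79.4% are shared with another annotated gene, AC000120.2, which was not used here, so the level of CYP51A1 is uncertain. HSD17B7, a sterol ketone reductase, fell with both siRNAs, from 5.21 ± 0.661 FPKM to 3.92 ± 0.159 and 3.64 ± 0.227 FPKM, but after the GC adjustment the fall with Si-KDM4C#1 was -0.14 on the log2 scale and no longer passed. TM7SF2, a sterol reductase, ran from 3.84 to 4.85 FPKM over the 9 libraries and did not pass with either siRNA (limma adjusted p = 0.956 and 0.083). After the GC adjustment its log2 fold changes were -0.28 and -0.20 and both passed.

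**Figure D3:**
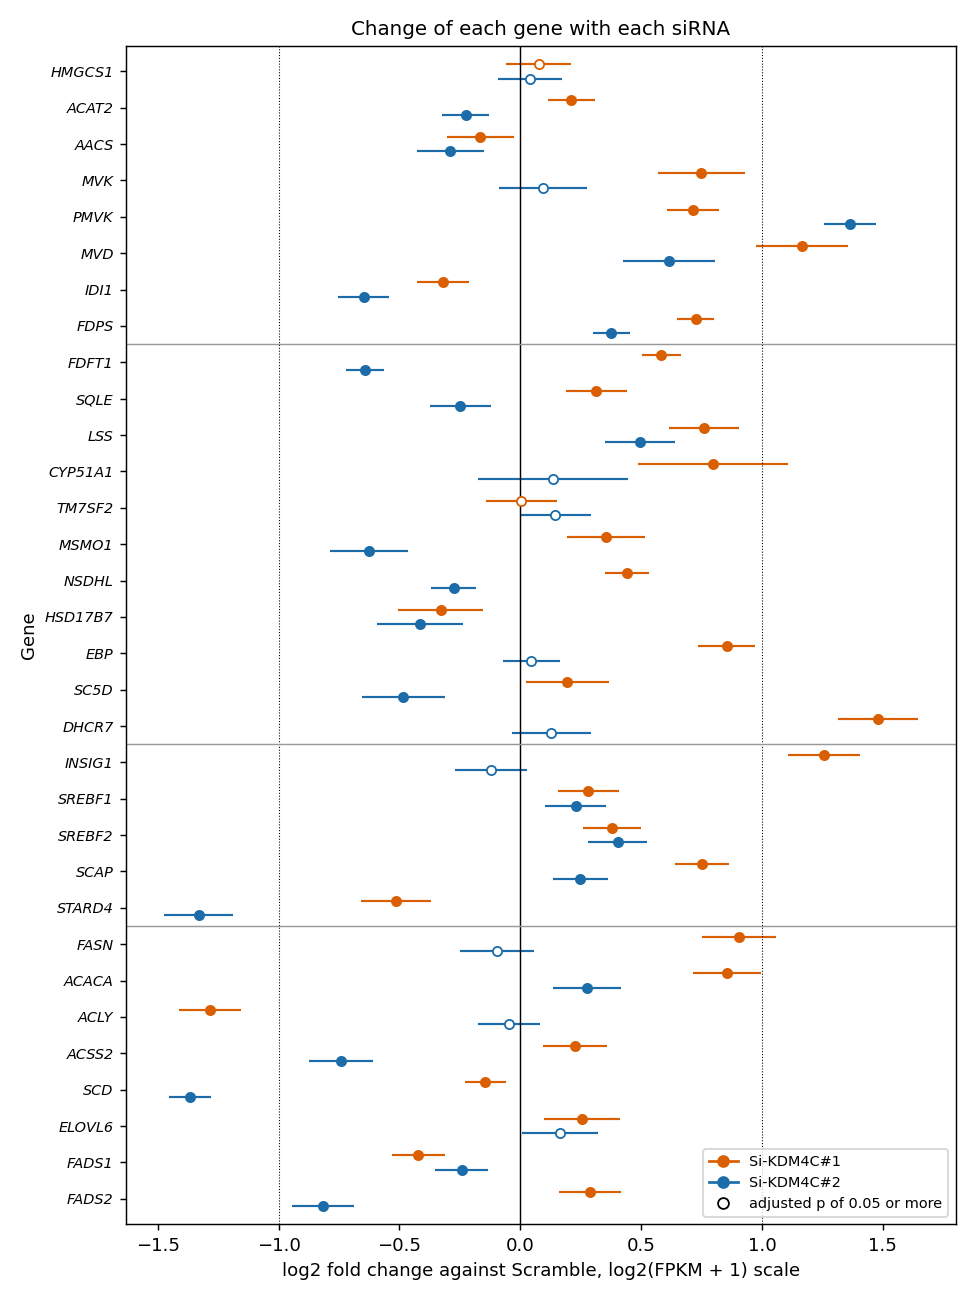
Log2 fold change against Scramble, on the log2(FPKM + 1) scale, of each of the 32 genes with Si-KDM4C#1 (orange) and Si-KDM4C#2 (blue), with 95% intervals, filled where the adjusted p was under 0.05, and dotted lines at a 2-fold change. Orange points lie mostly to the right of 0, with ACLY at -1.28 and DHCR7 at 1.48, and blue points run from SCD at -1.37 to PMVK at 1.36.

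The fatty acid genes went both ways with each siRNA. Of 8 genes, 5 rose and 3 fell with Si-KDM4C#1, and 1 rose and 4 fell with Si-KDM4C#2. With Si-KDM4C#1 the shares were 62.5% and 37.5%, against 31.7% and 33.9% of all genes tested. The share that fell was thus near the background. With Si-KDM4C#2 the background was 34.4% risen and 25% fallen. Counts among 8 genes are too small to be read against these shares. FASN, the fatty acid synthase, was at 114, 100.0 and 94.8 FPKM in Scramble, 193, 192 and 193 under Si-KDM4C#1 and 103, 90.0 and 94.7 under Si-KDM4C#2. The Si-KDM4C#1 libraries stood clear of the others, and the other groups overlapped. FASN rose 1.87-fold with Si-KDM4C#1 (log2 fold change 0.90, limma adjusted p = 2.19e-06). With Si-KDM4C#2 the log2 fold change was -0.096 (limma adjusted p = 0.252), and it became -0.47 after the GC adjustment (limma adjusted p = 2.04e-05) and -0.15 in voom (0.00705). ACACA, the carboxylase that makes malonyl-CoA, was at 14, 14.2 and 13.0 FPKM in Scramble, 25.2, 27.5 and 24.2 under Si-KDM4C#1 and 17.9, 15.7 and 17.0 under Si-KDM4C#2. All groups stood apart, and ACACA rose with both (log2 fold changes 0.85 and 0.28, limma adjusted p = 1.84e-06 and 0.0041).

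ACLY, which cleaves citrate to supply cytosolic acetyl-CoA to both routes, went against FASN and ACACA. It was at 102, 96.5 and 90.9 FPKM in Scramble, 40.4, 40.7 and 36.1 under Si-KDM4C#1 and 95.3, 90.1 and 94.7 under Si-KDM4C#2. The Si-KDM4C#1 libraries lay below all others, and the other groups overlapped. The mean in Scramble was 2.47-fold that with Si-KDM4C#1 (log2 fold change -1.28, SE 0.0568, limma adjusted p = 7.9e-08). With Si-KDM4C#2 the log2 fold change of ACLY was -0.045 (95% interval -0.17 to 0.083, limma adjusted p = 0.515), and -0.15 after the GC adjustment, which passed (limma adjusted p = 0.0242). Its promoter above holds CCAAT and GC boxes, as do those of INSIG1 and DHCR7. ACSS2, which makes acetyl-CoA from acetate, was at 6.61, 6.84 and 6.25 FPKM in Scramble, 7.55, 8.50 and 7.54 under Si-KDM4C#1 and 3.61, 3.38 and 3.58 under Si-KDM4C#2. No groups overlapped. ACSS2 rose with Si-KDM4C#1 (log2 fold change 0.23, limma adjusted p = 0.00679, lost after the GC adjustment at 0.12) and fell with Si-KDM4C#2 (-0.74, limma adjusted p = 4.7e-06).

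SCD, the desaturase that makes monounsaturated fatty acids, was the most abundant of the 32. Its levels were 387, 383 and 377 FPKM in Scramble, 346, 361 and 330.3 under Si-KDM4C#1 and 150.4, 144 and 148 under Si-KDM4C#2. The groups did not overlap, and the Si-KDM4C#2 libraries lay far below the rest. The mean in Scramble was 2.59-fold that with Si-KDM4C#2 (log2 fold change -1.37, SE 0.0381, limma adjusted p = 2.01e-08). With Si-KDM4C#1 the fall was small (log2 fold change -0.14, limma adjusted p = 0.00763) and was lost in voom (-0.066, limma adjusted p = 0.137) and with the GC adjustment and replicate block together (-0.093, 0.0569). Reads of its processed pseudogene SCDP1, at means of 0.600, 0.575 and 0.155 FPKM, are few beside it. The sum of the 8 genes, to which SCD contributes most, was 611 to 653 FPKM in Scramble, 618 to 659 under Si-KDM4C#1 and 370 to 396 under Si-KDM4C#2.

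FADS2, the first desaturase of polyunsaturated fatty acids, was at 4.46, 4.10 and 4.06 FPKM in Scramble, 5.43, 5.20 and 5.44 under Si-KDM4C#1 and 1.84, 2.04 and 2.00 under Si-KDM4C#2. The groups did not overlap. FADS2 fell with Si-KDM4C#2 (log2 fold change -0.82, limma adjusted p = 2.21e-06) and rose with Si-KDM4C#1 (0.29, limma adjusted p = 0.00142), the latter lost after the GC adjustment at 0.12. FADS1, the desaturase that acts after it, fell with both, from 18.2, 17.2 and 17.2 FPKM to 12.8, 13.3 and 12.4 under Si-KDM4C#1 and 15.1, 15.1 and 13.8 under Si-KDM4C#2. Without overlap between groups, its log2 fold changes were -0.42 and -0.24 (limma adjusted p = 3.79e-05 and 0.00187). FADS1 and FADS2 lie side by side on chromosome 11 on opposite strands and share 490 exon bases, whose reads cannot be told apart without stated strand. FADS2 also shares 49 exon bases on its own strand with the abundant FEN1, which had means of 75.1, 53.5 and 86.8 FPKM in the order Scramble, Si-KDM4C#1, Si-KDM4C#2. ELOVL6, the elongase of saturated fatty acids, was at 7.62 ± 0.728 FPKM in Scramble, 9.28 ± 0.483 under Si-KDM4C#1 and 8.65 ± 0.480 under Si-KDM4C#2. It rose with Si-KDM4C#1 (limma adjusted p = 0.0088). With Si-KDM4C#2 its log2 fold change was 0.16 (limma adjusted p = 0.0677), and it passed with the replicate block (0.0335), without Scramble replicate 2 (0.0193) and after the GC adjustment (0.0113).

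Set directly against each other, the siRNAs differed most in INSIG1, DHCR7, FDFT1 and SCD, all lower with Si-KDM4C#2, and in ACLY, which was higher. The log2 differences (Si-KDM4C#2 minus Si-KDM4C#1) were -1.38 for INSIG1 and -1.35 for DHCR7 (SE 0.0661 and 0.0729). They were -1.23 for FDFT1, -1.22 for SCD and 1.24 for ACLY, and limma adjusted p was at most 3.37e-07 for these 5. FASN was lower by 1.00, FADS2 by 1.10, MSMO1 by 0.98 and ACSS2 by 0.97 on the log2 scale. EBP differed by -0.81, NSDHL by -0.72, MVK by -0.66, CYP51A1 by -0.66 and SCAP by -0.50, all past the test. PMVK (0.65) and FADS1 (0.18) were the other genes higher with Si-KDM4C#2, and the difference of FADS1 was lost in voom (0.057, limma adjusted p = 0.36). The 7 genes that did not pass were HMGCS1, AACS, TM7SF2, HSD17B7, SREBF1, SREBF2 and ELOVL6, with log2 differences from -0.12 for AACS to 0.14 for TM7SF2. All but TM7SF2 passed as lower with Si-KDM4C#2 under an alternative. In limma voom, AACS was at -0.31 (adjusted p = 0.000313), ELOVL6 at -0.24 (0.00383), SREBF1 at -0.19 (0.000853), HMGCS1 at -0.18 (0.0221) and SREBF2 at -0.11 (0.0472). After the GC adjustment, ELOVL6 was at -0.22 (limma adjusted p = 0.015), HSD17B7 at -0.21 (0.0456), HMGCS1 at -0.18 (0.0241), AACS at -0.17 (0.0229) and SREBF1 at -0.11 (0.0215), and AACS also passed after quantile normalization (-0.26, 0.00366). In the steps from squalene to cholesterol 9 of 11 genes were lower and none higher, and in the mevalonate steps 5 of 8 were lower and 1 higher. Of the regulators and STARD4, 3 of 5 were lower, and of the fatty acid genes 5 of 8 were lower and 2 higher. Of all genes tested, 26.5% were lower and 35.9% higher, and lists of 5 to 8 genes are small beside such shares.

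**Figure D4:**
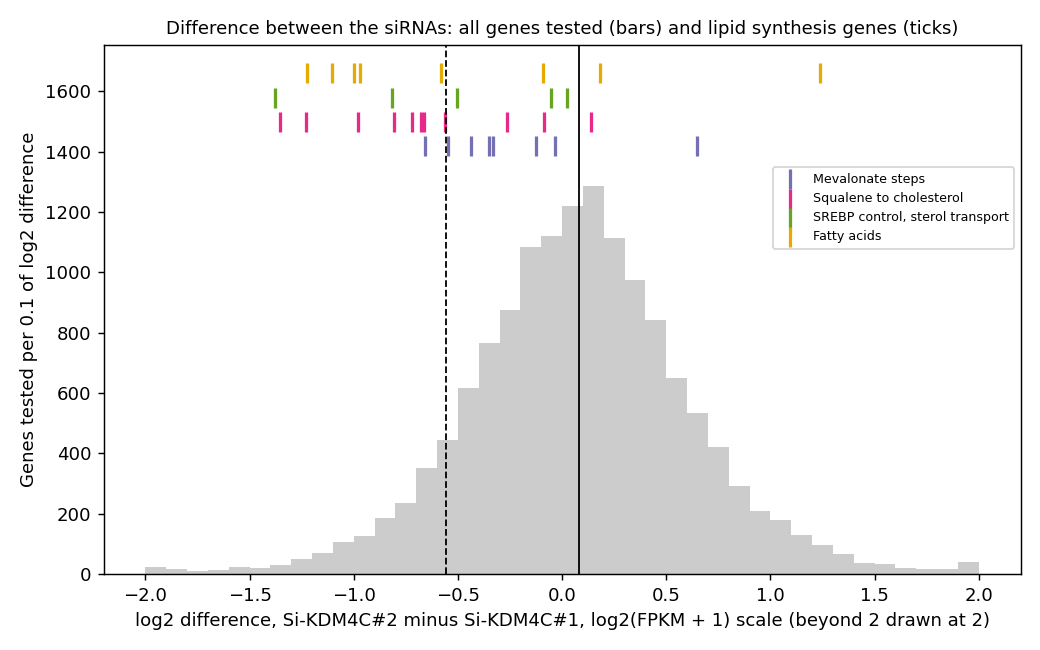
Log2 difference, Si-KDM4C#2 minus Si-KDM4C#1 on the log2(FPKM + 1) scale, of all 14363 genes tested (grey bars, number of genes per 0.1) and of the 32 genes by role (coloured ticks, whose height has no meaning), with differences beyond 2 drawn at 2. The solid line marks the median of all genes at 0.082 and the dashed line that of the 32 at -0.56, and the ticks right of the solid line are few, ACLY at 1.24 being farthest.

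Genes next to these in the pathways were taken from 5 further lists, whose counts stand against the shares of all genes tested (31.7% higher and 33.9% lower with Si-KDM4C#1, 34.4% and 25% with Si-KDM4C#2). Of 13 genes of SREBP processing and sterol-regulated protein degradation, 7 rose and 3 fell with Si-KDM4C#1 and 1 rose and 7 fell with Si-KDM4C#2, and 9 were lower and 2 higher with Si-KDM4C#2 than with Si-KDM4C#1. ERLIN1, which takes part in the sterol-regulated degradation complex, rose with both (log2 fold changes 1.28 and 0.55). MBTPS2, the second of the proteases that release SREBP, fell with both (-1.0 and -0.30), as did INSIG2, the paralog of INSIG1 (-0.75 and -0.95). With Si-KDM4C#1, INSIG1 rose and INSIG2 fell. MBTPS1, the protease that cuts SREBP first, was chosen for mention after its values were seen. It was at 14, 14.5 and 14.4 FPKM in Scramble, 21.0, 22.5 and 21.0 under Si-KDM4C#1 and 6.55, 8.18 and 7.05 under Si-KDM4C#2, and its log2 fold changes were 0.56 and -0.89. Its direct difference was -1.45 (limma adjusted p = 1.45e-07). Of 11 tested genes of the isoprenoid branches and other sterol steps, 6 rose and 1 fell with Si-KDM4C#1, and 4 rose and 2 fell with Si-KDM4C#2 (36.4% and 18.2%, the first near the share of all genes). The ubiquinone genes PDSS2 (0.64 and 0.92) and COQ2 (0.39 and 0.73) rose with both. So did LBR, a lamin receptor with sterol reductase activity (0.31 and 0.53).

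Of 26 tested genes of other fatty acid and glycerolipid synthesis, 12 rose and 8 fell with Si-KDM4C#1, and 11 rose and 8 fell with Si-KDM4C#2, shares of 46.2% and 30.8%, and of 42.3% and 30.8%. The share that fell with Si-KDM4C#1 was near that of all genes. MID1IP1, an activator of acetyl-CoA carboxylase, rose with both (log2 fold changes 1.33 and 1.06). DGAT2, which makes triglyceride, had means of 0.172 FPKM in Scramble, 0.544 under Si-KDM4C#1 and 1.78 under Si-KDM4C#2. It passed the filter on low values through Si-KDM4C#2 alone, so its values are a description, although it is among the genes counted. ACACB also had a Scramble mean under 1 FPKM and entered these counts only through a knockdown group. The counts of genes that rose thus include genes that such a filter favours. HACD2, a dehydratase of fatty acid elongation, fell with both (-0.24 and -1.24). Of 15 tested genes of sterol efflux, esterification, lysosomal release and the LXR pathway, 8 rose and 6 fell with Si-KDM4C#1, and 5 rose and 8 fell with Si-KDM4C#2. SOAT1, which esterifies cholesterol for storage, fell with both (-1.04 and -1.37), as did the sterol exporter ABCG1 (-1.25 and -0.51) and the lipoprotein receptor VLDLR (-1.19 and -0.40). Of 20 tested genes of fatty acid oxidation and ketogenesis, 11 rose and 3 fell with Si-KDM4C#1, and 13 rose and 3 fell with Si-KDM4C#2. ACAT1, the mitochondrial thiolase, rose with both (0.37 and 0.85), as did PPARA, the receptor that drives oxidation genes (0.35 and 0.75), and ECHS1, an enoyl-CoA hydratase (0.47 and 0.70). All log2 fold changes given for genes of these lists passed the test in limma. The median of the direct difference was -0.36 for the SREBP processing list and between -0.092 and 0.072 for the other 4 lists, beside -0.56 for the 32 synthesis genes and 0.082 for all genes tested.

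**Figure D5:**
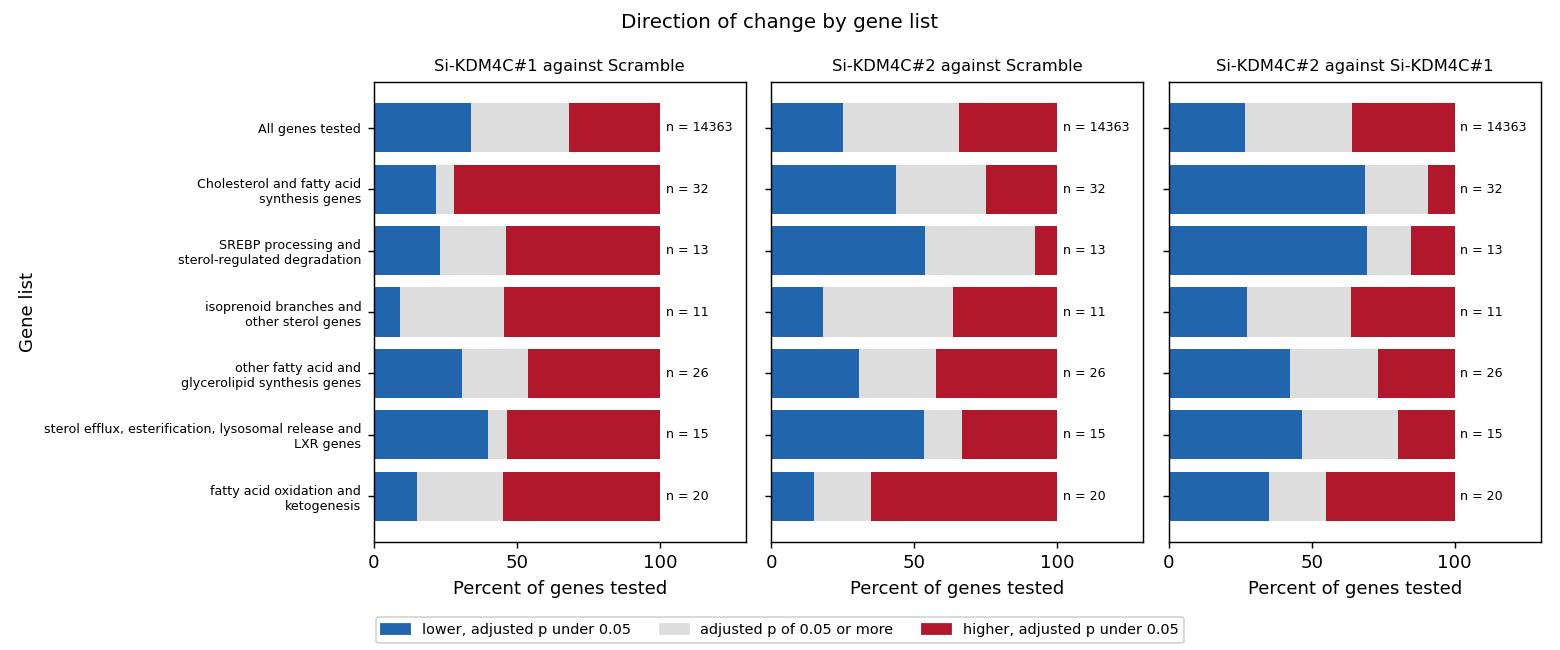
Share of the tested genes of each list that were lower (blue), did not pass (grey) or were higher (red) in each of the 3 comparisons, with the number of genes tested at the right of each bar. The synthesis genes have the longest red part of these lists with Si-KDM4C#1 (71.9%), and between the siRNAs their blue part (68.8%) is close to that of the SREBP processing list (69.2%).

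The 32 genes also differed in base composition and level. Their exons had a median GC content of 51.3%, against 48.2% for all genes tested, and the GC adjustment is given beside the calls that it changed. Of exons on opposite strands, SREBF1 shares 556 bases with RAI1, FDPS 693 with RUSC1-AS1 and SREBF2 280 with SREBF2-AS1, so these 3 are also uncertain to that extent. In Scramble the mean levels ran from 1.09 FPKM for CYP51A1 to 382 FPKM for SCD. The standard error of a log2 fold change ran from 0.0341 for FDPS to 0.138 for CYP51A1, the lowest gene.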

How the data were processed

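Total RNA was sequenced from 9 libraries as read pairs on an Illumina NovaSeq. For each library the authors deposited a gene list in FPKM, which they computed from aligned fragments. The submitters' processing notes name, among others, FastQC 0.11.5, HISAT2 2.1.0, StringTie 1.3.3b and featureCounts with GRCh38, without roles, and counting by strand is not given in the sources used here.

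Groups came from the labels. The 32 member genes, all gene lists and the rule for naming genes (every member, and in each other list the 3 with the largest change past the test) were chosen with earlier results of these data known. FPKM were taken as deposited, and log2(FPKM + 1) of all 9 libraries entered 1 limma-trend fit (limma 3.58.1, R 4.3.3) of the 14363 genes with a group mean of 1 FPKM or more, with Benjamini-Hochberg adjustment over all of them. Scripts were tested on simulated data. FPKM multiplied by GENCODE 29 exon length gave fragments whole within 0.05 in every library for 32077 of the 32847 genes with a length (97.5%), hence the depths of 14597502 to 18058555. At these depths 3 fragments of a 1 kb transcript are 0.166 to 0.206 FPKM, a limit of counting error only. Alternatives were quantile normalization, a pseudocount of 0.1, other filters, the compared libraries alone, the replicate number as a block and leaving out each library. A lowess adjustment for GC content (span 0.3) and limma voom on recovered fragments of 16007 genes were added after seeing the data. Voom held 29 of the 32, without HSD17B7, CYP51A1 and SCAP. No pairing of libraries by replicate number was seen (mean correlation of deviations 0.016 for same-numbered and -0.0081 for other pairs). The lists hold hepatocyte, epithelial, fibroblast and leukocyte markers too, and some genes are not reported here.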

Additional observations from a re-analysis of the deposited data

Results flagged for a closer look

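For 8 of the 32 genes (25.0%) the siRNAs had opposite effects against the shared Scramble libraries, a rise with Si-KDM4C#1 and a fall with Si-KDM4C#2, each past the test, and the direct difference passed as well. The same held for 4.11% of all genes tested. The sign of the direct difference is fixed by that choice of genes, so its size is given as a description. The log2 difference, Si-KDM4C#2 minus Si-KDM4C#1, was -1.23 for FDFT1, -0.56 for SQLE, -0.98 for MSMO1, -0.72 for NSDHL and -0.68 for SC5D, all of them enzymes between farnesyl pyrophosphate and cholesterol. It was -0.44 for ACAT2, the cytosolic thiolase. It was -0.97 for ACSS2 and -1.10 for FADS2, which act in acetyl-CoA supply and in desaturation. The rise of SC5D with Si-KDM4C#1 was lost in 8 of 9 fits that left out a library, and those of ACSS2 and FADS2 were lost after the GC adjustment. Values of ACAT2 are uncertain through the exon bases it shares with TCP1. Other genes met the rule under alternatives. FASN did so after the GC adjustment (log2 fold changes 0.60 and -0.47), and INSIG1 after quantile normalization (-0.26 with Si-KDM4C#2). KDM4C and KDM4B were both lower with Si-KDM4C#2 than with Si-KDM4C#1 (differences in log2(FPKM + 1) of -0.73 and -1.63). As ratios of mean FPKM, their levels with Si-KDM4C#1 were 3.97-fold and 4.91-fold those with Si-KDM4C#2. Their part was not tested.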

How the results depend on the processing

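Of the 12 counts of called genes (higher or lower, with and without a 2-fold limit, in 3 comparisons), 11 stayed within 1.5 times their value under every alternative tried. The exception was the count of genes lower with Si-KDM4C#1, which was 4 instead of 7 in limma voom, with or without the replicate block, where 3 genes of the 32 could not enter. Of the 7, only HSD17B7 could not enter, while AACS and SCD entered and no longer passed. The log2 fold change of TM7SF2 turned to -0.28 (Si-KDM4C#1) and -0.20 (Si-KDM4C#2) after the GC adjustment, with or without the block. In the same way those of SREBF1 and SCAP with Si-KDM4C#2 turned to -0.089 and -0.056. The direct difference of SREBF2 turned to -0.11 in voom, with or without the block, and the cause of these turns was not tested.

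With 1 library left out, 22 to 23 genes rose and 6 to 7 fell under Si-KDM4C#1, 8 to 10 rose and 14 fell under Si-KDM4C#2, and 3 were higher and 22 lower between the siRNAs. Past 2-fold these were 3 and 1, 1 and 2, and 1 and 5 to 7. The replicate block gave 23 higher and 7 lower genes, 9 and 14, and 3 and 22, the added gene being ELOVL6 (adjusted p = 0.0335 in limma). Same-numbered libraries correlated by -0.046 to 0.055 in their deviations, so no pairing by number was seen. These values cannot show whether such libraries were handled together. With Si-KDM4C#2, TM7SF2 passed as a rise without Scramble replicate 3 (log2 fold change 0.20). At these depths 3 fragments of a 1 kb transcript lie near 0.2 FPKM, below every one of the 32. Precision still differed with level, the standard error being largest for CYP51A1, the lowest gene (0.138).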
